A study of Saccharomyces cerevisiae with 6 samples.

Results

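Antisense RNAs (asRNAs) that carry the systematic name of the gene they lie opposite to, with -as added, form 446 of the 15753 features that were counted in this J2-RIP-seq experiment in Saccharomyces cerevisiae. They were chosen by that name alone, on the nuclear chromosomes, and 438 of them could be paired with the protein-coding feature of the same name, their host. The J2 antibody binds double-stranded RNA (dsRNA), and total RNA of wild-type S288C cells grown at 25 °C was incubated with it. The sample records give 10000000 cells per ml, and the study's methods a higher density in mid-logarithmic phase. Each of 2 groups held 3 libraries, described by the study as biologically independent: J2 eluate, the RNA released from the beads of the initial round, and J2 unbound, the RNA that stayed in the supernatant after a repeated round with antibody and fresh beads. All libraries thus came from the same genotype, temperature and growth stage, with no further treatment, and differed in whether the RNA had been bound. Of the mating-type marker genes, the 5 of a cells had medians over the 6 libraries from 360.3 (AGA2) to 8518 (STE2, a pheromone receptor gene), and the 4 of alpha cells from 7.26 (MF(ALPHA)2) to 466 (SAG1), so that SAG1 lay above the lowest markers of a cells.

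An asRNA is transcribed from the strand opposite to a gene, so its sequence is complementary to the mRNA wherever the transcripts overlap, and the molecules can pair to dsRNA. S. cerevisiae has lost RNA interference, and many of its asRNAs are short-lived. CUTs are removed by the nuclear exosome, XUTs by the cytoplasmic exonuclease Xrn1, and SUTs are more stable. How much duplex a pair can form is bounded by its rarer strand, which makes the amounts of both strands the quantities of interest here.

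Every host in the pairs lay on the strand opposite to its asRNA and overlapped it, by 69 to 3345 bases. The asRNAs were 73 to 4049 bases long with a median of 841, and the median share of the host coding sequence that they covered was 66.6%. Both the start and the stop codon were covered in 54 pairs, the start codon alone in 110, the stop codon alone in 97 and neither in 177. Each of the 446 asRNAs also shared bases with at least 1 other feature on its own strand, mostly a numbered asRNA, an XUT or a SUT, and reads were counted under more than 1 name: 407 asRNAs lay wholly inside such a feature, 407 of these had reads, and 0 had more reads than that feature in any library. An mRNA on the same strand overlapped 17 of them.

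Stretches of 60 bases of 6 asRNAs are shown because the strongest contrasts in the data ran between such pairs. They are written 5′ to 3′ on the asRNA strand in the sacCer3 build, from the RefSeq S288C sequence. The first 5 end opposite the first codon of the host, and the capitals mark the complement of its start codon. The last lies inside the reading frame and has no capitals.
YKL068W-A-as, chrXI:309206-309265, minus strand, opposite an uncharacterised small protein gene: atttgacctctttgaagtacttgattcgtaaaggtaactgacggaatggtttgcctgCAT
ARF2-as (YDL137W-as), chrIV:216529-216588, minus strand, opposite a GTPase gene of vesicle transport: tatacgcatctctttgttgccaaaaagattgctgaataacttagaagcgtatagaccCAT
VTC1-as (YER072W-as), chrV:302806-302865, minus strand, opposite a gene of the polyphosphate polymerase complex: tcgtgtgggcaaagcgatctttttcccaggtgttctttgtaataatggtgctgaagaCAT
REC114-as (YMR133W-as), chrXIII:536207-536266, minus strand, opposite a gene needed for meiotic DNA breaks: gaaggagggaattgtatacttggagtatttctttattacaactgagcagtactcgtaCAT
MER1-as (YNL210W-as), chrXIV:250931-250990, minus strand, opposite a gene for a meiotic splicing activator: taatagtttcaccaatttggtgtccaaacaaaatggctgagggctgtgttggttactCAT
NDT80-as (YHR124W-as), chrVIII:357424-357483, minus strand, opposite the gene of the transcription factor of mid-meiosis: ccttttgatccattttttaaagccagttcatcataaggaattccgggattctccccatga

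**Figure D1:**
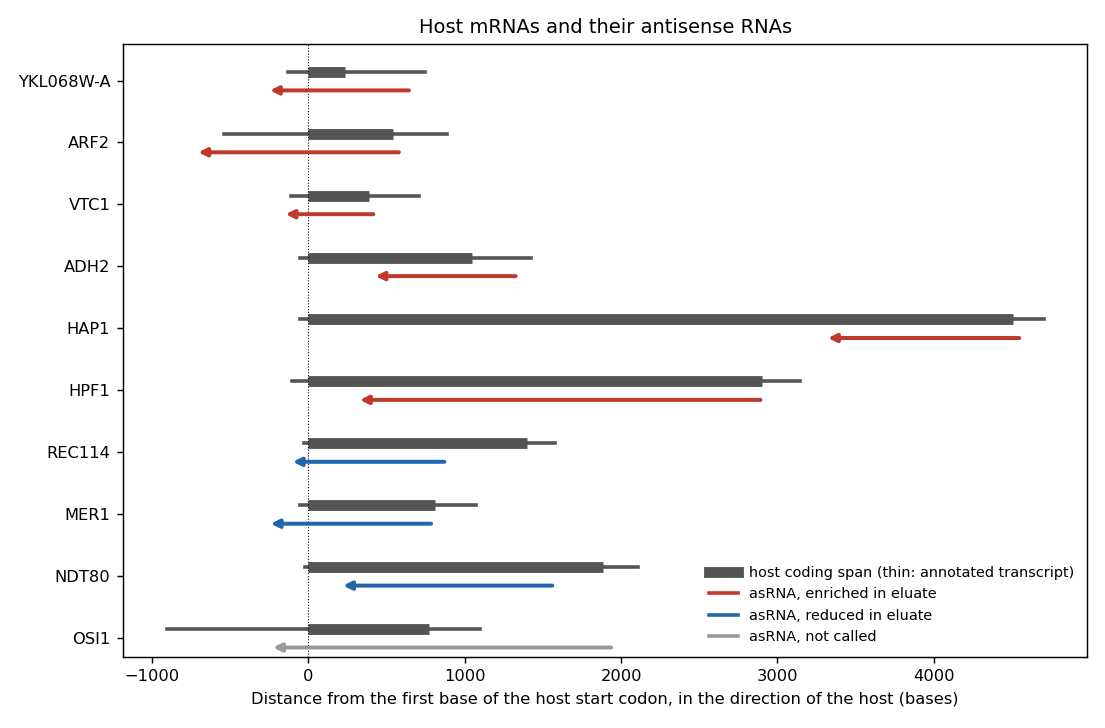
Positions of 10 asRNAs relative to their hosts, in bases from the first base of the host start codon (0) in the direction of the host. Thick grey bars are coding spans, thin grey lines annotated transcripts, and arrows the asRNAs from 5′ to 3′, coloured by their call in eluate against unbound. The asRNAs of YKL068W-A, ARF2, VTC1 and OSI1 span the whole coding sequence, and those of ADH2 and HAP1 cover its end.

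Some properties of the libraries touch the results below. The counts kept the strands apart: opposite the 20 most abundant hosts, the median antisense count was 0.00706%, 0.0372% and 0.00841% of the host count in unbound 1, 2 and 3, and 0.0218%, 0.132% and 0.0187% in eluate 1, 2 and 3. Unbound 2 and eluate 2 were thus the highest of their groups. Unbound 3 and eluate 3 stood apart for single hosts, which are named where they occur. The summed feature counts ran from 18645818 to 43141091 per library, and 3 counts, the floor used here, corresponded to a normalised count of 1.47 to 5.31. The deposited scaling sets the zero line of every fold change: scaling on mRNAs alone raised the median over all features by 1.31, on total counts by 0.91 and by TMM by 0.17. The ratio of an asRNA to its host within a library does not depend on it, apart from the pseudocount.

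In the eluate most host-named asRNAs were higher than in the unbound RNA. Among the 314 whose normalised count averaged more than 40 over the 6 libraries (the cut-off in the study's methods), 201 rose and 45 fell at an adjusted p under 0.05 (limma, adjusted over all 15753 features), and 68 passed in neither direction. Over all features above that mean, 34.6% were called higher and 48% lower. The median log2 fold change of the 314 was 1.44, with 1.22, 1.45 and 1.63 in library pairs 1, 2 and 3, against -0.46 over all features. The spread was wide, from -3.96 to 5.46, with quartiles at 0.035 and 2.93. Among the 1411 numbered asRNAs above the mean, 85.8% rose and 3.05% fell, with a median of 2.17. These classes share reads and their difference was not tested. On mRNA-only scaling 260 host-named asRNAs rose and 9 fell, and on total counts 244 and 14.

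The minimum admitted some asRNAs through a single group. Of the 314, 69 had an unbound mean of 40 or less and 14 an eluate mean of 40 or less. The 231 above 40 in both groups held 134 that rose and 34 that fell. Over all 446, 266 rose and 52 fell, with a median of 1.43. The 132 at or below the minimum were shorter, with a median length of 437 against 985 bases, and 17 of them lay opposite ribosomal protein genes. Just above it stood YORCdelta11-as (mean 40.8, log2 fold change -1.17, called lower) and COS111-as (40.8, 0.86, not called), and just below it RPL3-as (39.7, -0.21, not called) and FOX2-as (39.5, -1.45, called lower).

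Except for ARF2-as, the strongest rises started from low unbound levels and passed the minimum through the eluate alone. They were chosen among called asRNAs whose unbound and eluate libraries did not overlap, so the lack of overlap was given in advance. YKL068W-A-as had normalised counts of 25.3, 14.2 and 14.2 in unbound 1, 2 and 3 and 701, 682 and 1077 in eluate 1, 2 and 3. Its log2 fold change was 5.46 ± 0.30 (SE) (adjusted p = 4.2e-07), the largest of the class, while YKL068W-A itself had 1276, 1068 and 1036 in unbound and 664, 622 and 913 in eluate. The mRNA thus went the opposite way (-0.63, adjusted p = 0.014), which did not pass when eluate 2 or unbound 1 was left out (adjusted p = 0.054 and 0.072), and in the eluate the asRNA made up 52.6% ± 1.40% of the counts of the pair (SD, n = 3) after 1.53% ± 0.356% in unbound.

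ARF2-as was both among the most enriched and among the most abundant. Its counts were 129.5, 172 and 219 in unbound and 4964, 5181 and 8064 in eluate (5.12 ± 0.25 (SE), adjusted p = 3.0e-07), whereas ARF2 mRNA had 6906, 6452 and 6235 in unbound and 5646, 5658 and 6965 in eluate (-0.11, adjusted p = 0.59). The asRNA was therefore a small part of the pair in unbound, 2.61% ± 0.777 (SD, n = 3), and about level with the mRNA in eluate, 49.4% ± 3.71 (SD, n = 3). NAT5-as, opposite a subunit gene of the N-terminal acetyltransferase NatA, had 4.47, 10.6 and 6.44 in unbound and 335, 256.1 and 419 in eluate (5.41 ± 0.35 (SE), adjusted p = 8.7e-07). YMR315W-as, opposite an NADP(H)-dependent oxidoreductase gene, had 16.4, 10.6 and 43.8 and 700.4, 751 and 1206 (5.37 ± 0.45 (SE), adjusted p = 3.7e-06). In both pairs the mRNA fell, by 0.85 for NAT5 and by 1.37 for YMR315W on the log2 scale (adjusted p = 0.0024 and 7.2e-05).

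The other 4 of the 8 most enriched lay opposite ATP3 (gamma subunit of the mitochondrial ATP synthase), YKL033W-A, CTR1 (high-affinity copper transporter) and COX4 (a subunit of cytochrome c oxidase). ATP3-as had 7.44, 0 and 1.29 in unbound, a few reads at most, and 81.6, 79.3 and 83.4 in eluate. Its fitted value of 4.94 (adjusted p = 0.00010) depended on the pseudocount, with 2.87 at a pseudocount of 10. YKL033W-A-as went from 8.93, 5.31 and 3.87 to 182, 168 and 221 (4.82 ± 0.35 (SE), adjusted p = 1.6e-06). CTR1-as had 4.47, 30.1 and 11.6 in unbound and 335, 355 and 397 in eluate, 4.81 ± 0.52 (SE) (adjusted p = 2.1e-05), and COX4-as 7.44, 1.77 and 3.87 and 143, 122 and 127, 4.76 ± 0.43 (SE) (adjusted p = 6.1e-06). For all 4 the eluate libraries lay close together and far above every unbound library. COX4 mRNA itself was higher in unbound 3 (2439) than in unbound 1 and 2 (706 and 725), and the sign of its change, 0.26 (adjusted p = 0.58), turned without unbound 1 or unbound 2 (-0.045 and -0.026).

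**Figure D2:**
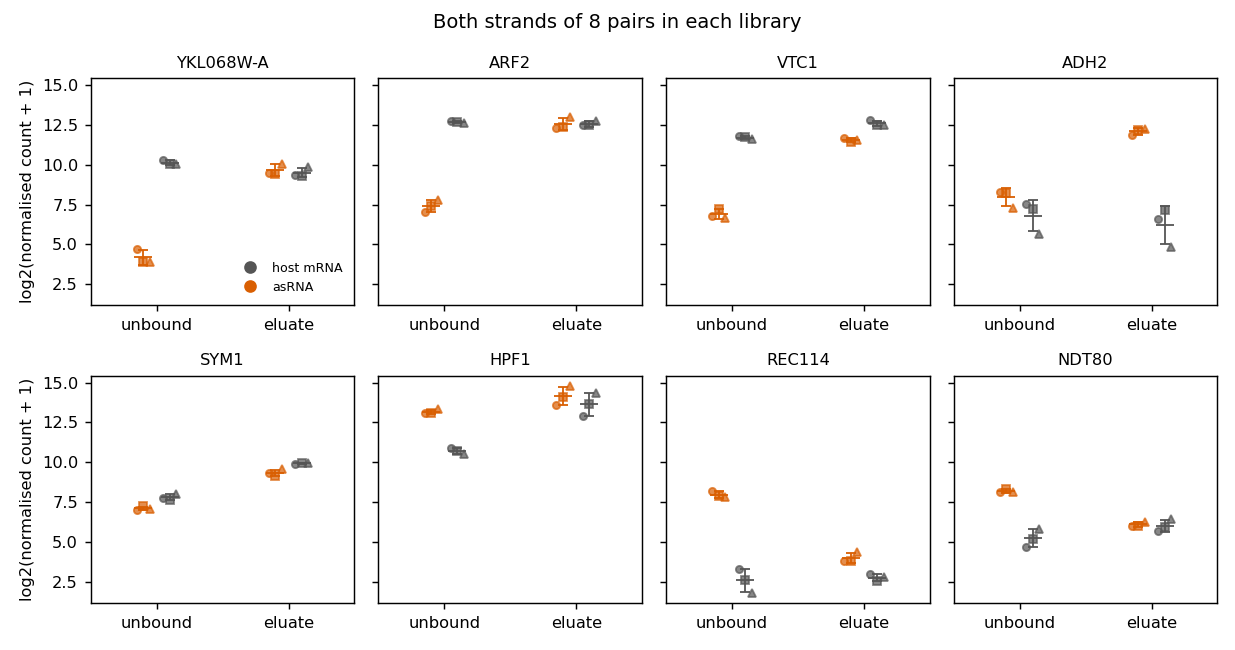
Both strands of 8 pairs as log2(normalised count + 1), by library. Circles, squares and triangles are libraries 1, 2 and 3, bars the mean ± SD (n = 3), orange the asRNA and grey the host mRNA. In ARF2 and YKL068W-A the strands are far apart in unbound and level in eluate, and in NDT80 they are level in eluate with the asRNA lower than in unbound.

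The fold change of the asRNA differed with the abundance of the mRNA on the other strand, and the relation was not the same with and without the minimum. Over all 438 asRNAs with a coding host, the median log2 fold change was -1.32 opposite hosts with a mean normalised count of 40 or less (n = 33), -0.34 between 40 and 200 (n = 55), 1.32 between 200 and 1000 (n = 120), 2.40 between 1000 and 5000 (n = 130) and 1.84 above 5000 (n = 100). The median was thus highest between 1000 and 5000, as it was in each library pair. There 118 asRNAs rose and 2 fell, whereas above 5000 56 rose, 2 fell and 42 passed in neither direction. Of the asRNAs in the top class, 65 were at or below the minimum, and the 35 above it had a median of 3.42. At the other end, 21 of 26 asRNAs above the minimum fell opposite hosts of 40 or less, and 5 passed in neither direction. Of all features above the minimum 34.6% rose and 48% fell, and of host-named asRNAs 64.0% and 14.3%. Without the minimum, 266 of all 446 asRNAs rose and 52 fell. On mRNA-only scaling 9 host-named asRNAs above the minimum fell. Spearman's rho between the log2 fold change and the host mean was 0.50 over all 438, with 0.42 to 0.54 in the library pairs. Across the 307 asRNAs with a coding host and a mean above 40, rho was 0.74, with 0.70 to 0.74 in the library pairs. For the mean of the asRNA itself rho was 0.27, for its length -0.31 and for its GC content 0.097. These values describe asRNAs measured in the same 6 libraries, and another scaling moves all classes alike.

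Opposite the 20 most abundant hosts, 3 asRNAs rose and 17 passed in neither direction, with a median of 0.33. Of all features above the minimum 34.6% rose and 48% fell, and of host-named asRNAs 64.0% and 14.3%. HSC82-as, opposite an Hsp90 chaperone gene, had 404, 856 and 179 in unbound and 155, 554 and 98.8 in eluate (-0.95 ± 0.65 (SE), adjusted p = 0.21), and RPS1A-as 56.6, 209 and 24.5 and 17.2, 112 and 17.03 (-1.02 ± 0.84 (SE), adjusted p = 0.29). Unbound 2 and eluate 2 held the highest value of their group for both, as they did for the antisense share of abundant hosts given above, and with the library number as a block both passed as lower (adjusted p = 0.0015 and 0.014). These asRNAs stood at log2 ratios of -8.17 ± 1.20 and -10.49 ± 1.38 to their hosts in unbound (SD, n = 3) and -8.68 ± 1.25 and -9.91 ± 1.77 in eluate, and the ratio did not pass the test (adjusted p = 0.57 and 0.61). YEF3, the gene of translation elongation factor 3, was the most abundant host with a mean of 477752, and its asRNA had a log2 fold change of -0.43 (adjusted p = 0.66).

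**Figure D3:**
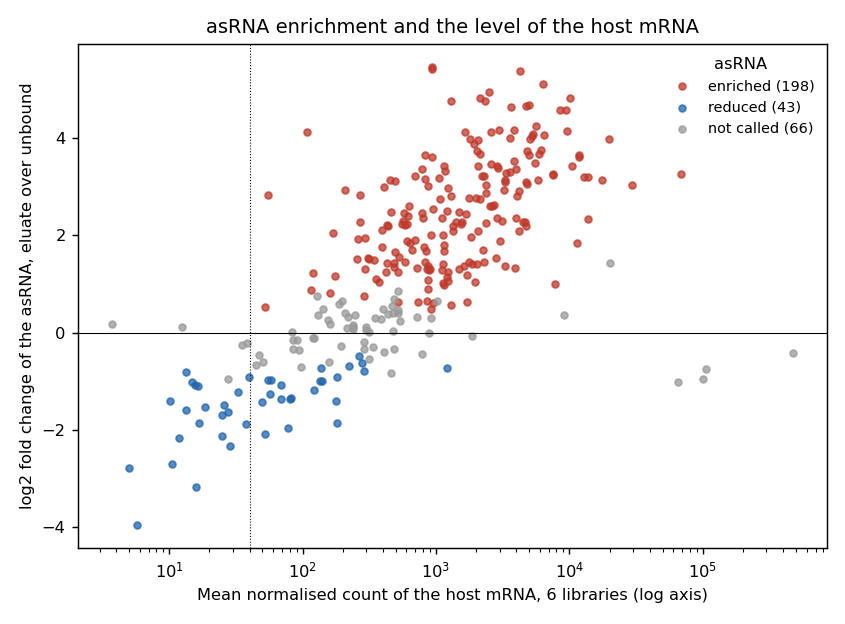
log2 fold change of 307 asRNAs with a protein-coding host and a mean above 40, against the mean normalised count of the host mRNA over the 6 libraries (log axis). Points are coloured by the call at an adjusted p under 0.05 (limma), and the dotted line marks a host mean of 40. Left of that line 21 of 26 asRNAs fell, and between 1000 and 5000 94 of 97 rose. Of all features above a mean of 40, 48% fell and 34.6% rose.

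Of the 5 asRNAs that fell most, 4 lay opposite genes of meiosis and sporulation. REC114-as had 293, 239 and 223 in unbound and 13.3, 13.3 and 19.6 in eluate, a log2 fold change of -3.96 ± 0.27 (SE) (adjusted p = 1.2e-06). DTR1-as, opposite the gene of a transporter of the spore wall component dityrosine, went from 92.3, 103 and 107 to 13.8, 11.5 and 6.81 (-3.17 ± 0.34 (SE), adjusted p = 1.8e-05), MER1-as from 247, 275 and 207 to 37.9, 32.1 and 33.2 (-2.78 ± 0.23 (SE), adjusted p = 3.8e-06), and PCH2-as, opposite a meiotic checkpoint ATPase gene, from 202, 135 and 128 to 28.5, 29.7 and 29.8 (-2.33 ± 0.27 (SE), adjusted p = 3.3e-05). In each the lowest unbound library lay above the highest eluate library, as groups without overlap were a condition of the choice. The fifth was YGL034C-as, opposite an open reading frame of no known product, with 299, 291 and 272 and 61.9, 49.7 and 26.4 (-2.70 ± 0.31 (SE), adjusted p = 3.1e-05). The hosts of all 5 were below the minimum of 40, with 28.6 for PCH2 as the highest mean among them. REC114-as, DTR1-as, MER1-as and PCH2-as passed that minimum through the unbound group alone, with every eluate value under 40. All 5 calls held under each scaling, test and left-out library, which does not undo their choice as extremes.

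Meiotic genes are transcribed chiefly in diploid cells that enter sporulation, and 21 of the 110 genes of a list for meiosis and sporulation had a host-named asRNA. Of the 18 asRNAs above the minimum, 10 fell, 2 rose and 6 passed in neither direction, with a median of -0.96 against 1.44 over all host-named asRNAs above it. Beside these 10 of 18, 48% of all features and 14.3% of host-named asRNAs above the minimum fell. The median host mean of the list was 36.4, and 12 of its hosts were at or below 40. On mRNA-only scaling 5 fell and 6 rose. NDT80-as had 279.9, 319 and 285 in unbound and 62.9, 64.8 and 77.5 in eluate (-2.09 ± 0.21 (SE), adjusted p = 1.1e-05), while NDT80 mRNA had 25.3, 35.4 and 56.7 and 50.1, 61.8 and 86.0 (0.78, adjusted p = 0.075, or 0.026 with the library number as a block). SPO22-as, opposite a gene for chromosome synapsis, did not move beyond its spread, with 287, 248 and 305 and 301, 318 and 281 (0.10, adjusted p = 0.62), but SPO22 mRNA rose from 143, 126 and 102 to 277, 355 and 295 (1.32). RIM4-as, opposite the gene of a meiotic RNA-binding repressor, had 308, 259 and 412 and 163, 192 and 129 (-1.003, adjusted p = 0.0037), a direction that turned on mRNA-only scaling (0.31). The 2 that rose, IDS2-as (1.76) and MEI4-as (1.23), lay opposite hosts with means of 806 and 120.1. Of 9 meiotic hosts above the minimum, 4 rose and 5 passed in neither direction.

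Genes for phosphate and metal uptake had a median host mean of 4843. Here 10 of 11 asRNAs rose and 1 fell, with a median of 3.67. Of all features above the minimum 34.6% rose, and of host-named asRNAs 64.0%. Of all asRNAs above the minimum opposite hosts between 1000 and 5000, 94 of 97 rose, and the parts of list and host level were not tested. The other larger lists had median host means of 4821 (cell wall), 1989 (amino acids) and 108 (carbon sources). VTC1-as had 107, 151 and 101 in unbound and 3228, 2779 and 2992 in eluate (4.66 ± 0.20 (SE), adjusted p = 2.2e-07), and VTC1 mRNA rose as well, from 3523, 3359 and 3109.6 to 7008, 5748 and 5752 (0.88, adjusted p = 0.00087). FET4-as, opposite the low-affinity iron transporter gene, had 84.9, 99.2 and 125 and 939.8, 1169.9 and 1919.9 (3.64 ± 0.27 (SE), adjusted p = 2.0e-06) while FET4 mRNA fell by 1.58. PHO84, the high-affinity phosphate transporter gene with a long-studied antisense transcript, showed a smaller and more scattered rise. PHO84-as had 418, 416 and 597 in unbound and 1663, 1916 and 626 in eluate (1.42 ± 0.37 (SE), adjusted p = 0.0065), so that eluate 3 lay near unbound 3. PHO84 mRNA was also low in both libraries of that number, with 2156, 1943 and 286 in unbound and 3235, 3762 and 760.3 in eluate (0.98, adjusted p = 0.28). PHO85-as, opposite a cyclin-dependent kinase gene of phosphate signalling, went from 128, 133 and 131 to 479.7, 443 and 694 (2.01, adjusted p = 1.8e-05). The asRNA of the list that fell was FRE4-as, opposite a ferric reductase gene (-0.78).

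Among cell wall genes 11 of 12 asRNAs rose and 1 passed in neither direction (median 2.35). Of all features above the minimum 34.6% rose, and of host-named asRNAs 64.0%. Of the 12 asRNAs opposite cell wall genes, 3 were among the most abundant of the class. HPF1-as, opposite a cell wall mannoprotein gene, had 8692, 8602 and 10227 in unbound and 12613, 17277 and 27735 in eluate (0.99 ± 0.28 (SE), adjusted p = 0.0085). CSS1-as, opposite a gene with sequence similar to HPF1, had 8847, 8841 and 9567 and 7326, 10279 and 8425 (-0.079 ± 0.19 (SE), adjusted p = 0.71), and its groups overlapped. PRY3-as, opposite a secreted sterol-binding protein gene, had 1455, 1476 and 1084 and 2344, 3228 and 5347 (1.37 ± 0.28 (SE), adjusted p = 0.0015). Of the 50-base windows of HPF1-as and CSS1-as, 84.7% and 79.0% were unique in the genome, and the other windows recur elsewhere. Far lower in unbound were DSE2-as, with 23.8, 21.3 and 27.1 and 493, 598 and 872 (4.67), and PIR1-as, with 53.6, 60.2 and 37.4 and 1112, 1388 and 1101 (4.57), opposite a daughter-cell secreted protein gene and a structural wall protein gene.

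Amino acid permeases and biosynthesis gave 8 asRNAs higher and 1 lower of 11, with a median of 2.76. Of all features above the minimum 34.6% rose, and of host-named asRNAs 64.0%. DIP5-as, opposite an acidic amino acid permease gene, had 191, 113 and 640.5 and 1554, 2024 and 2839 (3.10 ± 0.52 (SE), adjusted p = 0.00042), with unbound 3 above unbound 1 and 2 and the DIP5 mRNA of unbound 3 (1317) below theirs (5739.9 and 5013). Without unbound 3 the log2 fold change was 3.81. ARG1-as, opposite argininosuccinate synthetase, had 161, 154 and 246 and 1356, 1509.7 and 943 (2.76 ± 0.25 (SE), adjusted p = 5.6e-06), and MEP3-as, opposite an ammonium permease gene, 137, 119 and 106 and 918, 1217 and 1073 (3.14 ± 0.19 (SE), adjusted p = 6.6e-07). The asRNA that fell was DAL1-as, opposite allantoinase (-1.63), whose host had a mean of 27.7.

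Opposite genes of carbon source use, 7 of 17 asRNAs fell, 3 rose and 7 passed in neither direction (median -0.16). Over all features above the minimum 48% fell and 34.6% rose, and 14.3% of host-named asRNAs fell. On mRNA-only scaling 2 of the 17 fell and 10 rose. Those that fell lay opposite genes such as STL1, a glycerol transporter (-2.17), ADH7, an alcohol dehydrogenase (-2.13), GAL2, the galactose permease (-1.52) and GAL10 of galactose use (-1.21), with host means from 11.8 to 32.8. ADH2-as, opposite the glucose-repressed alcohol dehydrogenase gene, stood apart from these. It had 314, 303 and 157 in unbound and 3716, 4601 and 4746 in eluate (4.13 ± 0.26 (SE), adjusted p = 8.1e-07), with ADH2 mRNA at 185, 149 and 50.3 and 93.9, 143 and 28.1 (-0.61, adjusted p = 0.38). It therefore rose opposite a scarce mRNA, from 68.6% ± 6.53 to 98.0% ± 1.27 of the counts of the pair (SD, n = 3). ICL1-as, opposite isocitrate lyase of the glyoxylate cycle, had 841, 873 and 669 and 901, 1084 and 967 (0.31, adjusted p = 0.13, or 0.034 on TMM scaling). HXT5-as, opposite a hexose transporter gene, had 308, 276 and 323 and 322, 451 and 891 (0.74, adjusted p = 0.060, or 0.018 with the library number as a block and 0.022 by DESeq2).

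Smaller lists held few members. Of the 3 asRNAs opposite mating genes, FAR1-as, opposite the gene of the pheromone-dependent cell cycle inhibitor, rose from 207, 172 and 192 to 1744, 2130.4 and 2621 (3.49 ± 0.19 (SE), adjusted p = 4.4e-07). PRM1-as, opposite a gene of mating cell fusion, and PRM2-as fell (-0.99 and -1.10, adjusted p = 0.0014 and 0.014), though on mRNA-only scaling both were above 0 (0.32 and 0.19). Among stress genes, SIS1-as, opposite an Hsp40 gene, went from 16.4, 23.0 and 10.3 to 158, 157 and 199 (3.35 ± 0.33 (SE), adjusted p = 1.1e-05) and CTA1-as, opposite peroxisomal catalase, from 341, 358 and 317 to 183, 182 and 175 (-0.91 ± 0.18 (SE), adjusted p = 0.0011). Opposite genes of DNA repair, replication and chromatin, RAD55-as (1.25, adjusted p = 0.0015) and HOS4-as (1.44, adjusted p = 0.0013) rose. The asRNAs of the other 4 genes were below the minimum: RAD3-as, CTF4-as and POL31-as rose (3.66, 1.68 and 2.82), and SET4-as passed in neither direction (-0.40, adjusted p = 0.34).

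Ribosomal protein genes hosted 20 asRNAs. Of the 3 above the minimum, 0 were called by limma, DESeq2 or edgeR, or at an unadjusted p under 0.05, and of all 20, RPS22B-as and RPL26A-as rose (3.73 and 2.59) and RPL40B-as fell (-2.23), each with a mean under 10. RPL24A-as had 31.3, 95.7 and 9.02 in unbound and 114, 85.4 and 61.3 in eluate (1.43 ± 0.68 (SE), adjusted p = 0.079, or 0.017 with the library number as a block). Without unbound 2, the highest of its group, the log2 fold change was 2.24 (adjusted p = 0.0030). The median antisense count opposite these genes was between 0.0104% and 0.194% of the host count per library. The mRNAs themselves were among the most strongly lowered hosts. Of 20, 18 fell, with a median of -3.19, where 74.7% of all nuclear mRNAs above the minimum fell. RPL6A mRNA had 44384, 42299.9 and 42148 in unbound and 1501, 1300.1 and 1855 in eluate (-4.80 ± 0.19 (SE), adjusted p = 2.2e-07), and RPL21A, RPL24B and RPL19B had log2 fold changes of -4.62, -4.18 and -4.04. ADH3, a mitochondrial alcohol dehydrogenase gene, completed the 5 most reduced hosts, with 13499, 12512 and 13166 and 766, 770.3 and 1009.8 (-3.95, adjusted p = 2.3e-07).

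**Figure D4:**
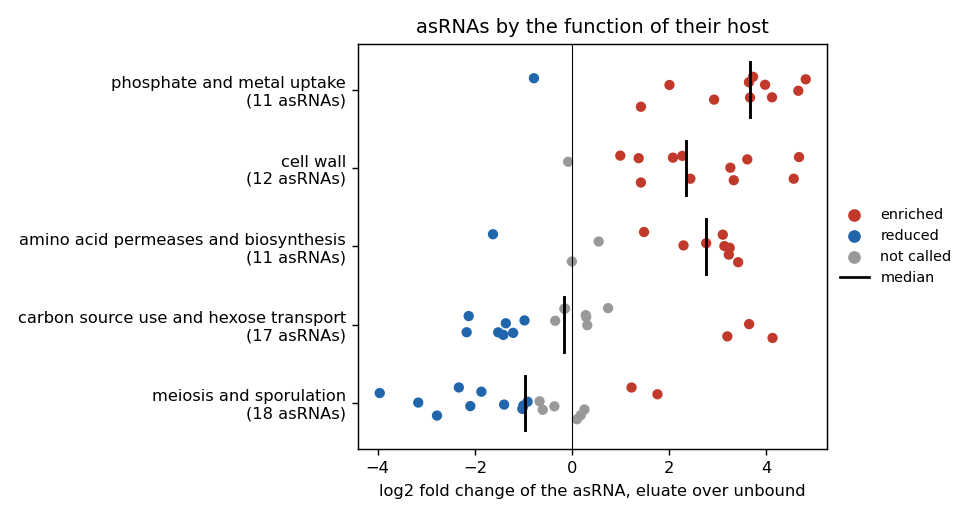
log2 fold change, eluate over unbound, of the asRNAs above a mean of 40 in 5 lists of host genes. Each point is an asRNA coloured by its call (limma, adjusted p under 0.05), black lines are medians, and the vertical jitter carries no value. Medians run from -0.96 opposite genes of meiosis and sporulation to 3.67 opposite genes of phosphate and metal uptake.

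The host mRNAs had higher fold changes than other mRNAs, a difference given here as a description. Of 405 hosts above the minimum, 206 fell (50.9%) and 60 rose (14.8%), whereas over all nuclear mRNAs 74.7% fell and 7.73% rose. Their median log2 fold change was -0.62, with -0.57, -0.58 and -0.73 in the library pairs, against -1.45 for the 5298 nuclear mRNAs without such an asRNA. At means between 200 and 1000 the medians were -0.067 for hosts and -1.51 for the others, and above 5000 they were -1.36 and -1.63. Hosts whose asRNA was above 40 had a median of -0.19 (n = 281), and 59 of them rose. Hosts whose asRNA was at or below 40 had a median of -1.83 (n = 124), and 1 rose. These sets also differed in level, with median host means of 899 and 6255. Of the asRNAs at or below 40, 17 lay opposite ribosomal protein genes. What part each difference has was not tested. The sign of the host median depended on scaling (0.68 on mRNA-only and 0.29 on total count scaling), where 219 and 165 hosts rose and 85 and 115 fell.

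The most enriched hosts, apart from SYM1, stood opposite asRNAs that were more abundant than the mRNA in unbound. HPF1 mRNA rose from 1892, 1711 and 1482 to 7798, 12919.6 and 21282 (2.93 ± 0.31 (SE), adjusted p = 2.0e-05). OSI1 mRNA (YKL071W) had 158, 184 and 63.1 in unbound and 683, 791 and 547 in eluate (2.43 ± 0.36 (SE), adjusted p = 0.00019), and YER175W-A mRNA 41.7, 28.3 and 41.2 and 167, 209 and 226 (2.42 ± 0.26 (SE), adjusted p = 2.1e-05). In each the asRNA was more abundant than the mRNA in unbound. CSS1 mRNA had the largest value, with 692, 643 and 49.0 in unbound and 3516, 5532 and 821 in eluate (3.16 ± 0.97 (SE), adjusted p = 0.014). Unbound 3 and eluate 3 were far below the other libraries for it. Without unbound 3 the log2 fold change was 1.91 (adjusted p = 0.033), and without eluate 1 or eluate 2 the adjusted p was 0.054 and 0.066. With the library number as a block the adjusted p was 2.7e-06 (limma). SYM1, a mitochondrial inner membrane protein gene, was the fifth, with 216, 202 and 260.3 and 968, 979 and 1017 (2.13 ± 0.17 (SE), adjusted p = 3.0e-06), and its asRNA rose too.

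Set against each other within a library, the strands of a pair came closer together in the eluate. In the 281 pairs with both strands above 40, the median log2 ratio of asRNA to host was -3.22, -3.06 and -3.28 in unbound 1, 2 and 3 and -1.25, -1.22 and -1.18 in eluate 1, 2 and 3. The ratio was called higher in eluate in 180 pairs and lower in 24 (limma, adjusted over all 7437 overlapping sense and antisense pairs), 64.1% and 8.54%, where all 3768 pairs above 40 gave 85.1% higher and 3.34% lower. Pairs within 2-fold of equal strands numbered 54, 49 and 47 in the unbound libraries and 103, 113 and 114 in the eluates. The SD of the log2 ratio across pairs was 3.22 to 3.65 in unbound and 1.83 to 2.18 in eluate. The minimum on the mean of all libraries admits rare asRNAs through a high eluate, which by itself favours low and scattered ratios in unbound. Pairs above 40 in both groups were not counted apart. Without any minimum the median change of the ratio was 2.10, against 1.81 with it.

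The direction differed with which strand was the rarer. Where the asRNA was the rarer strand in unbound (236 pairs), the ratio was higher in eluate in 176 pairs, lower in 5 and not called in 55. The median change was 2.27. Where the asRNA was the more abundant strand (45 pairs), the ratio was higher in 4, lower in 19 and not called in 22. The median change was -0.69. In the first set the asRNA rose in 191 pairs and the host in 44, and in the second the asRNA rose in 7 and the host in 15. Grouping on unbound values and then comparing with them favours such a pattern, so the pairs were also grouped by unbound 1 alone and the change was taken from the other 5 libraries. The asRNA was then the rarer strand in 241 pairs, with 170 higher and 5 lower (median change 2.29). It was the more abundant in 39, with 3 higher and 17 lower (median change -0.69). Pairs with equal strands in unbound 1 were in neither set. Both groupings keep the minimum on the mean of all libraries, which admits rare asRNAs through a high eluate. The regrouping cannot remove that part of the pattern.

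**Figure D5:**
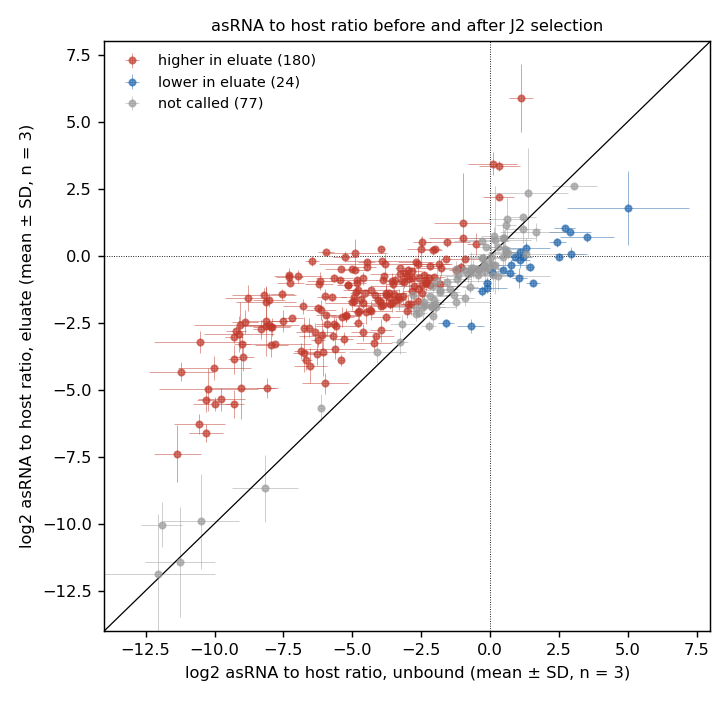
log2 ratio of asRNA to host mRNA in unbound and in eluate for 281 pairs with both strands above a mean of 40, as means ± SD of 3 libraries. The solid line marks equal ratios, the dotted lines equal strands, and colours the call of the change (limma, adjusted p under 0.05). Most pairs on the left lie above the line, and most called pairs on the right, where the asRNA was the more abundant strand, lie below it.

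By joint call, the asRNA rose and the host fell in 84 pairs, the asRNA rose alone in 70, and both rose in 44. The host rose alone in 10, the asRNA fell and the host rose in 5, the asRNA fell alone in 11, and both fell in 6. The host fell alone in 14, and neither strand passed in 37. The median log2 ratio in unbound was -6.41 for the first of these sets, -2.42 where both rose and 1.44 where the asRNA fell and the host rose. Taken singly, 21.0% of the 281 hosts rose and 37.0% fell. Of host-named asRNAs above the minimum 64.0% rose and 14.3% fell, and of all features 34.6% and 48%. Joint calls were not counted over all pairs, and whether these counts are particular to this class was not tested. Among the pairs in which both rose, SYM1-as had 131, 151 and 134 in unbound and 640.5, 566 and 753 in eluate (2.22 ± 0.19 (SE), adjusted p = 4.0e-06), and its ratio of -0.70 ± 0.27 in unbound and -0.61 ± 0.18 in eluate (SD, n = 3) kept within its spread. RPI1, a transcriptional regulator gene, and IML3, a kinetochore gene, were alike, with log2 fold changes of 2.51 and 1.89 for the asRNAs and 2.02 and 1.68 for the mRNAs. In EMA19 and JLP2 the asRNA rose more (3.42 and 3.13) than the mRNA (1.97 and 1.59), and the ratio changed (adjusted p = 0.00046 and 0.00045).

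The 5 pairs with the highest ratio in unbound were chosen by those unbound values, which favours a lower ratio in eluate, and their values are given as a description. CSS1-as stood at a log2 ratio of 5.01 ± 2.23 in unbound and 1.77 ± 1.38 in eluate (SD, n = 3, adjusted p = 0.014). Without eluate 1 this change no longer passed (adjusted p = 0.059), and without unbound 3 it was -1.96. With the library number as a block its adjusted p was 5.85e-05 (limma). OSI1-as went from 3.52 ± 0.99 to 0.68 ± 0.18 (adjusted p = 0.00036), NDT80-as from 2.95 ± 0.58 to 0.08 ± 0.24 (adjusted p = 5.5e-05) and YLR030W-as from 2.90 ± 0.77 to 0.89 ± 0.066 (adjusted p = 0.0013). In CSS1 and OSI1 the mRNA rose and the asRNA was not called. OSI1-as had 1306, 1348 and 1613 in unbound and 1245, 1272 and 776 in eluate (-0.40, adjusted p = 0.12). In NDT80 the asRNA fell, and in YLR030W the asRNA fell (-1.07) and the mRNA rose (0.95, adjusted p = 0.040, lost without unbound 3 or any of the eluate libraries). MOH1-as kept its excess, with 3.07 ± 0.82 and 2.59 ± 0.089 (adjusted p = 0.36).

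Other abundant asRNAs were higher in the eluate. HAP1, the gene of the heme-responsive activator, carries a Ty1 insertion near its end in S288C, and HAP1-as covers the last part of its annotated reading frame (chrXII:649739-650960, minus strand). It had 893, 916 and 938 in unbound and 6516, 7446 and 10889 in eluate (3.14 ± 0.20 (SE), adjusted p = 9.0e-07), with HAP1 mRNA at 12483, 11125 and 14029.8 and 19271, 24503 and 23257 (0.83, adjusted p = 0.0037). YERCdelta8-as (chrV:248694-249670, minus strand), opposite a long terminal repeat of a Ty element, was the most abundant asRNA without a coding host, with 581, 473 and 476 and 5086, 4077 and 4871 (3.20 ± 0.17 (SE), adjusted p = 3.7e-07). Of the other 7 without a coding host, snR4-as, opposite a small nucleolar RNA gene, rose from 4.47, 5.31 and 5.15 to 101, 86.0 and 262 (4.47 ± 0.44 (SE), adjusted p = 1.1e-05). YKLCsigma1-as (1.42) and YDRCdelta9-as (1.99, below the minimum) rose, YLL017W-as (-1.07) and YORCdelta11-as (-1.17) fell, and YARWdelta7-as (-0.20) and YOL153C-as (-0.32) passed in neither direction.

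The medians of sets defined by the part of the host covered spanned a narrower range than those by host level. Among the 281 pairs, asRNAs over both start and stop codon (50 pairs) had a median log2 fold change of 2.13, those over the stop codon alone (77) 1.79, those over the start codon alone (73) 1.65 and those over neither (81) 1.42. The hosts in these sets had medians of 0.058, -0.16, -0.51 and -0.28. The sets also differed in level, with median host means of 505 where both codons were covered and 1222 where neither was. Spearman's rho across the 281 pairs between the host log2 fold change and the number of overlapping bases was 0.094, and with the share of the coding sequence covered 0.069. With the mean log2 ratio of asRNA to host it was 0.52, a value that shares the host counts on both sides.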

How the data were processed

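Total RNA of wild-type S. cerevisiae gave 3 J2 unbound and 3 J2 eluate libraries, grouped by their titles (TruSeq RNA Sample Prep Kit). The submitters' processing notes name STAR, featureCounts (Subread 1.5.0-p1), R 3.6.1, DESeq2 1.24.0 and sacCer3. Whether counting used strand is not given in the sources used here. The signal the authors deposited is a normalised count, in which each library's reads were scaled by a single factor. Their own columns of fold changes, p-values and mean levels were not used. Whole reads were recovered from 100% of the low values (within 0.1 read).

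Eluate was tested against unbound with limma 3.58.1 in R 4.3.3 (moderated statistics with a mean trend, two-sided) after adding a pseudocount of 1 and taking log2, which understates the change of low features. Adjustment (Benjamini-Hochberg) ran over all 15753 features, or over 7437 overlapping sense and antisense pairs for the log2 ratio of asRNA to host, and calls are an adjusted p under 0.05. Features with a mean of 40 or less were tested and are counted apart. Scripts were tested on simulated data. Libraries of the same number deviated together from their group means (Pearson's r across features 0.23, 0.32 and 0.30 for numbers 1, 2 and 3, each library correlating best with its own number), so the numbers were taken to pair them, from the data, as the labels give only the number.

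Alternatives were TMM, total count and mRNA-only scaling, DESeq2 1.42.0 and edgeR 4.0.16 on recovered reads, pseudocounts of 0.5 and 10, other minimum means, the library number as a block and leaving out each library. Coding spans matched the RefSeq S288C reference in 99.9% of 5811 genes. Named are the most enriched, reduced and abundant asRNAs, the most changed hosts and the pairs with the highest ratio in unbound. Also named are the pairs in which both rose most and up to 3 abundant asRNAs of each of 10 host gene lists. The most enriched and reduced were taken among called asRNAs above the minimum whose groups did not overlap. PIR1, DSE2, STL1, ADH7, GAL2, GAL10, IDS2, MEI4, PHO85, FRE4, DAL1, YEF3, COS111, RPL3, FOX2, POL31, RPS22B, RPL26A, RPL40B and the asRNAs without a coding host were named after their values were seen. An asRNA that the rule names is not reported here. Members and lists were chosen with earlier results of these data known.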

Additional observations from a re-analysis of the deposited data

How the results depend on the processing

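The counts of asRNAs and hosts that rose or fell kept within 1.5 times under both pseudocounts, TMM scaling, DESeq2, edgeR, the library number as a block and each left-out library. With the block, 209 asRNAs rose and 51 fell, 76 hosts rose and 219 fell, and the ratio was higher in 185 pairs and lower in 27. Among the asRNAs, hosts and ratios tested singly it changed the 5 calls printed above and no other. Scaling decided the direction of small changes. Total count and mRNA-only scaling left 14 and 9 asRNAs that fell, 165 and 219 hosts that rose, 115 and 85 hosts that fell, medians of 2.34 and 2.74 for the asRNAs, and 0.29 and 0.68 for the hosts, whose sign turned. The host median was -0.45 on TMM scaling and -0.47 by edgeR. A minimum mean of 100 left 28 asRNAs that fell, an asRNA median of 1.73 and 15 pairs with a lower ratio. Without a minimum, 275 pairs had a higher and 44 a lower ratio, with a median change of 2.10, and, chosen after the data were seen, the median asRNA log2 fold change was -1.32 opposite hosts of 40 or less and 1.84 opposite hosts above 5000, with a rho of 0.50 to the host mean. Keeping asRNAs without a same-strand mRNA, chosen after the data were seen, gave 189 and 43. Every asRNA has another feature on its strand, so the planned analysis without any could not be run.

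Named values whose sign turned were, on mRNA-only and total count scaling, ARF2 mRNA (1.21 and 0.81), CTA1-as (0.40 and 0.0061), YER175W-A-as (1.19 and 0.79), CSS1-as (1.236 and 0.84), YKL068W-A mRNA (0.68 and 0.28), OSI1-as (0.91 and 0.51) and NAT5 mRNA (0.47 and 0.071). On mRNA-only scaling alone they were RIM4-as (0.31), PRM2-as (0.19), YLR030W-as (0.24), RPS1A-as (0.26), HSC82-as (0.36), PRM1-as (0.32) and CTR1 mRNA (0.33). TMM scaling and edgeR turned ARF2 mRNA (0.059 and 0.059), YER175W-A-as (0.047 and 0.044) and CSS1-as (0.087 and 0.11), none of them called in the main test. With a library left out, turns came in COX4 mRNA (-0.045 to 0.85), CSS1-as (-0.21 to 0.036) and the ratios of RPI1 (-0.11 to 0.84) and SYM1 (-0.037 to 0.23), as the range over left-out libraries. MOH1-as lost its call without eluate 1, eluate 2, unbound 1 or unbound 2. The causes were not tested. Depth limits the asRNAs at a few reads in unbound, and intervals between libraries rest on 3 of each.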
